A study of Rattus norvegicus with 6 samples.

Results

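Ion channels, pumps and the proteins that move calcium set the electrical activity and the beat of heart muscle cells. Rows of the deposited expression table whose gene symbol begins with a channel, pump, calcium store, adrenergic receptor, adenylyl cyclase or phosphodiesterase family name were taken as this set. The rule found 34 of the 3221 rows. With serum from children with dilated cardiomyopathy (DCM), 33 of the 34 genes had a mean ratio below that with nonfailing (NF) serum. So had 2969 of all 3221 rows. Lrrc8a, a subunit of the anion channel that opens when cells swell, had one above it, as had 252 of all rows. Among the lowest ratios were those of Pde1a (a phosphodiesterase, 0.411 times the NF level), Atp1b2 (a sodium pump subunit, 0.469 times) and Hcn4 (the pacemaker channel, 0.546 times).

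Neonatal rat ventricular myocytes (NRVMs) from Sprague-Dawley rats at postnatal day 2 were cultured with NF or DCM human serum, and RNA was sequenced in 6 libraries, 3 per serum. The labels give 1% serum for 72 hours, while the study's methods name another concentration and a range of times. One NF and 1 DCM library came from each of 3 NRVM preparations, called A, B and C here, and each library pooled 2 RNA preparations. Both sera were human, and no library without serum was analysed here. Per the labels, serum of the same donors was used for NF libraries B and C, so A differs from B and C in cells and in NF donors, and these cannot be told apart. The labels number the serum of the 3 DCM libraries differently, so preparations also differ in DCM donors. Differences in the serum change between preparations cannot be told apart from these donors.

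In a heart muscle cell, sodium channels start the action potential, calcium channels admit the calcium that opens the release channels of the sarcoplasmic reticulum, and potassium channels end the potential. Pumps then return calcium to the store and sodium to the outside. Adrenergic receptors tune all of these through cyclic AMP, which adenylyl cyclases make and phosphodiesterases break down. Cultured neonatal ventricular cells are known to beat on their own and to keep several channels that adult working myocardium carries at low level, such as the pacemaker channel Hcn4 and the T-type calcium channel Cacna1g.

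Levels are given as FPKM, fragments counted relative to exon length and to the mapped reads of the library, so that genes of different length can be set side by side. Ratios are the log2 of DCM over NF serum within a preparation, given as mean ± SD over the 3 preparations. A gene is said to have risen or fallen where limma, fitted to log2(FPKM + 1) with the preparation as a block and adjusted over all 3221 rows, gave an adjusted p under 0.10. The authors kept rows by their own test of these same libraries, so passing this test is not independent evidence of a change. Counts and medians of the set describe the rows in the table and not the gene families as a whole.

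Of the 34 genes, 25 fell, 1 rose and 8 did not pass. The 25 are 73.5% of the set, beside 61.6% of all rows that fell, and the 1 gene that rose stands beside 6.24% of all rows that rose. The median of the mean log2 ratios was -0.41 for the set and -0.29 for the table. Because most rows of the table were lower with DCM serum, the fit was repeated relative to the median of each preparation (-0.14 in A, -0.33 in B and -0.21 in C on the log2(FPKM + 1) scale). This adds the same 0.226 to the fitted value of each gene, and the pseudocount of 1 makes fitted values of genes under about 1 FPKM much smaller than their ratios. On that footing 8 of the 34 genes were lower (10.7% of all rows were) and 1 was higher (7.82% of all rows were). Among those 8 were Atp1b2, Hcn4, Pde2a, Pde4a, Trdn, Camk2d and Gja3, and all 8 also fell without centring, while the higher gene was Lrrc8a. Without the block, limma called none of the 34 genes, of which 6 had an unadjusted p under 0.05, and 0.124% of all rows.

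**Figure D1:**
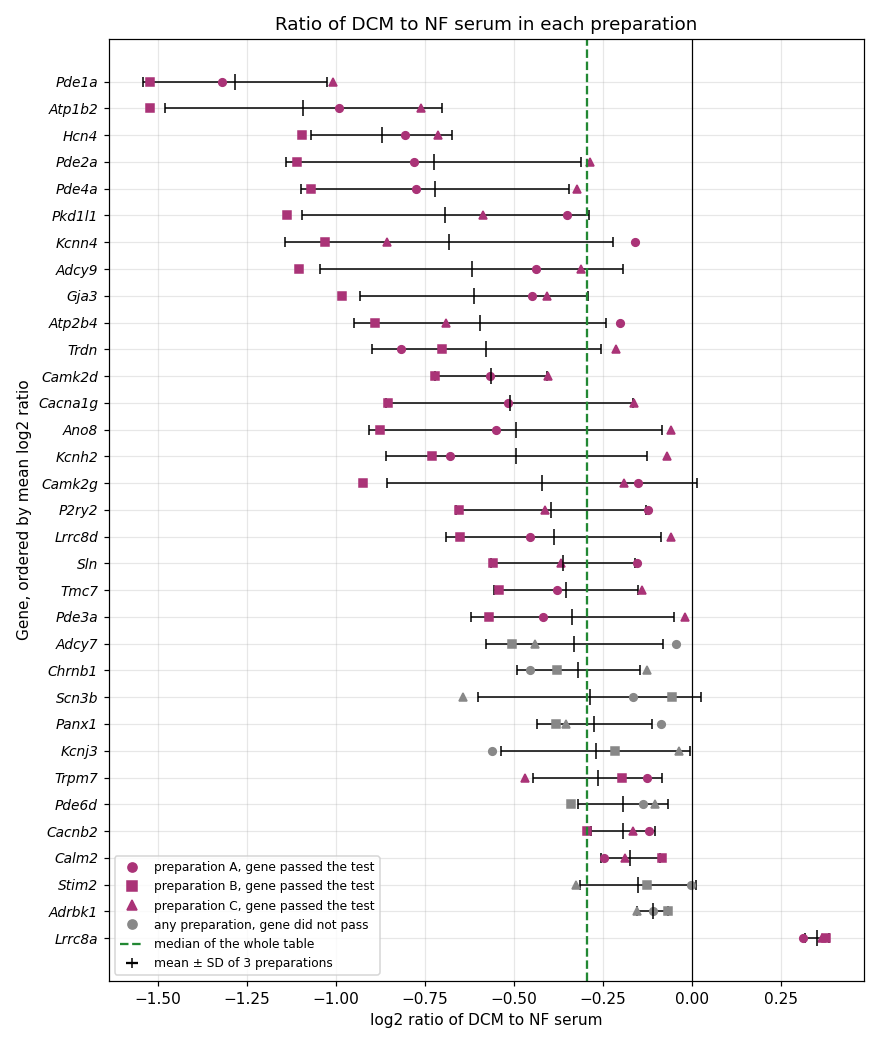
Log2 ratio of DCM to NF serum (x axis) for 33 of the 34 genes (y axis), with 1 symbol per preparation and a bar for the mean ± SD of 3 preparations. Lrrc8a stands alone to the right of 0, and the dashed line marks the median of the whole table at -0.29.

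The DCM libraries all lay below the NF libraries for 6 genes (among them Hcn4, Gja3, Camk2d, Tmc7 and Trpm7), while 25.7% of all rows were parted in this way. For no gene of the set did they all lie above, against 2.73% of all rows. The remaining 28 genes overlapped, Lrrc8a among them. Pde1a, Atp1b2, Hcn4, Gja3 and Camk2d fell also when A, B or C was left out, and the other 21 calls were lost without at least 1 of the preparations. Without A, B or C, 9, 7 and 14 of the 34 genes fell, beside 1164, 461 and 523 of all 3221 rows. Lrrc8a rose without A or B and had an adjusted p of 0.122 without C.

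Hcn4 makes the channel that carries the depolarizing pacemaker current of the sinus node. It was at 4.69, 4.25 and 5.76 FPKM with NF serum in A, B and C and at 2.68, 1.99 and 3.51 FPKM with DCM serum. The levels of Hcn4 were spread alike with either serum (SD 0.776 FPKM with NF and 0.763 FPKM with DCM serum). The log2 ratio was -0.87 ± 0.20 (SD, n = 3). Its adjusted p of 0.0193 in limma was the smallest of the 34 genes. Scn3b, which encodes a subunit that accompanies the pore of voltage-gated sodium channels, did not pass (adjusted p = 0.125). Its NF levels of 5.98, 1.52 and 8.06 FPKM differed far more between preparations than between sera.

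Of the 3 potassium channel genes, Kcnh2 and Kcnn4 fell and Kcnj3 did not pass, where 61.6% of all rows fell. Kcnh2 encodes the pore of the rapid delayed rectifier, a current that ends the action potential. Its levels were 11.2, 26.7 and 20.9 FPKM with NF serum and 7.02, 16.1 and 19.9 FPKM with DCM serum. DCM libraries A and B lay below their NF partners by log2 ratios of -0.68 and -0.73, while C was almost level at -0.07, and the gene did not pass without A or B (adjusted p = 0.173 and 0.162).

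Kcnj3, a subunit of the acetylcholine-gated potassium channel of atrial and nodal cells, was at 1.87, 3.70 and 2.67 FPKM with NF serum and at 1.27, 3.19 and 2.61 FPKM with DCM serum. The sera overlapped and it did not pass (adjusted p = 0.124). Kcnn4, a potassium channel opened by calcium that is best known from blood cells, had a log2 ratio of -0.68 ± 0.46 (SD, n = 3) at the lowest mean level of the set. It was at 1.33, 0.449 and 0.378 FPKM with NF serum and at 1.19, 0.220 and 0.209 FPKM with DCM serum. Preparation A was thus above B and C with either serum, and the gene did not pass when any 1 preparation was left out (adjusted p from 0.122 to 0.287).

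Cacna1g forms the pore of a T-type calcium channel, which opens at low voltage. With NF serum it was at 7.47 FPKM in A against 27.6 and 28.4 FPKM in B and C, and with DCM serum it was at 5.22, 15.3 and 25.4 FPKM. Its mean log2 ratio of -0.51 ± 0.35 (SD, n = 3) is smaller than the distance between preparation A and the others. Cacnb2, the regulatory beta subunit of the L-type calcium channel, was steadier, at 20.6, 26.1 and 26.2 FPKM with NF serum and 18.9, 21.3 and 23.4 FPKM with DCM serum. Both genes fell in the block fit (adjusted p = 0.0548 for Cacna1g and 0.0865 for Cacnb2), and Cacnb2 was at 0.041 relative to the preparation medians. Cacna1g did not pass without A or B (adjusted p = 0.136 and 0.124), nor Cacnb2 without A, B or C (adjusted p from 0.131 to 0.236).

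Trdn had the highest mean level of the set, 103.5 FPKM. It encodes triadin, which anchors calsequestrin to the ryanodine receptor at the calcium release site. With NF serum its levels were 75.0, 159 and 133 FPKM in A, B and C, and with DCM serum 42.5, 97.5 and 115 FPKM. The DCM library was lower within each preparation, as for every gene of the set but Lrrc8a. The sera overlapped when preparations were mixed. The log2 ratio was -0.58 ± 0.32 (SD, n = 3, adjusted p = 0.0421), and it did not pass without A or B (adjusted p = 0.110 and 0.112). Stim2, a sensor of calcium in the endoplasmic reticulum, did not pass (log2 ratio -0.15 ± 0.16, adjusted p = 0.227).

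**Figure D2:**
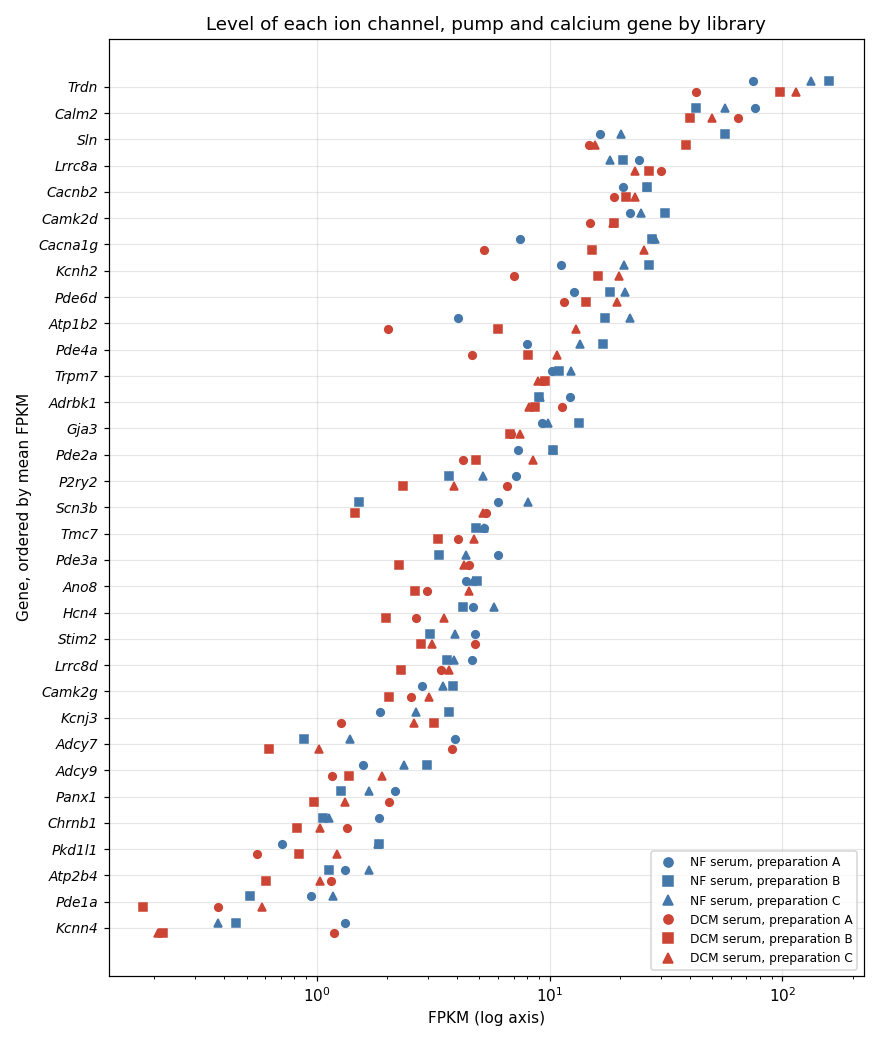
FPKM on a log axis (x) of 33 of the 34 genes (y, ordered by mean level) in the 6 libraries, blue for NF and red for DCM serum, with 1 symbol shape per preparation. Levels run from means of 0.629 FPKM for Kcnn4 to 103.5 FPKM for Trdn, and preparation A stands apart from B and C for Atp1b2, Cacna1g and Adcy7.

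The 3 genes for pumps or their regulators fell, as did 61.6% of all rows, and relative to the preparation medians Atp1b2 was the 1 of them that passed. Atp1b2 encodes the beta2 subunit of the sodium pump, which exports sodium in exchange for potassium. Its NF levels were 4.03, 17.3 and 22.1 FPKM in A, B and C, and its DCM levels 2.03, 6.03 and 13.0 FPKM. Within each preparation the DCM library was clearly lower, at log2 ratios of -0.99, -1.52 and -0.76 (mean -1.09 ± 0.39, SD, n = 3, adjusted p = 0.0278). The NF library of preparation A was nevertheless lower than 2 of the 3 DCM libraries.

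Sarcolipin (Sln) is a small inhibitor of the calcium pump of the sarcoplasmic reticulum that is typical of atrial muscle. It stood at 16.5, 56.8 and 20.3 FPKM with NF serum and at 14.8, 38.5 and 15.7 FPKM with DCM serum. Preparation B was the high one with both sera, and the serum effect was the smaller of the differences (log2 ratio -0.36 ± 0.20, SD, n = 3, adjusted p = 0.0535). Atp2b4, a calcium pump of the surface membrane, went from 1.32, 1.13 and 1.68 FPKM to 1.15, 0.607 and 1.04 FPKM, with a log2 ratio of -0.59 ± 0.35. Neither Sln nor Atp2b4 passed without B or C (adjusted p from 0.138 to 0.192).

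Calcium acts on the cell through calmodulin and its kinases, and the 3 genes of this kind fell, as did 61.6% of all rows. Relative to the preparation medians Camk2d was the 1 of them that passed. Camk2d, the main calmodulin-dependent kinase of the heart, was at 22.1, 31.2 and 24.7 FPKM with NF serum and at 14.9, 18.9 and 18.7 FPKM with DCM serum. The groups did not overlap, and the log2 ratio of -0.56 ± 0.16 (SD, n = 3, adjusted p = 0.0278) varied little between preparations. Camk2g, a second isoform gene, was at a lower level (2.82, 3.86 and 3.48 FPKM with NF serum) and had a log2 ratio of -0.42 ± 0.44. The ratio of Camk2d to Camk2g was 7.84, 8.09 and 7.10 with NF serum and 5.87, 9.31 and 6.13 with DCM serum, and the ratio did not separate the sera (exact two-sided permutation p = 0.5, n = 3 per serum, 0.7 when adjusted over the 4 within-family ratios compared, and exact p = 0.5 within pairs).

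Calm2, 1 of several genes for the same calmodulin protein, was at 76.3, 42.5 and 56.5 FPKM with NF serum and at 64.3, 40.1 and 49.6 FPKM with DCM serum. Its log2 ratio of -0.17 ± 0.08 (SD, n = 3, adjusted p = 0.0972) was above the table's median, and reads shared with related calmodulin sequences may have been assigned differently by the authors' counting. Among the members that passed, Calm2 and Camk2g had the highest adjusted p, and neither passed when any 1 preparation was left out (adjusted p from 0.134 to 0.302).

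The phosphodiesterase and adenylyl cyclase families held 7 of the 34 genes. Of the 5 phosphodiesterase family genes, 4 fell, where 61.6% of all rows did, and Pde2a and Pde4a also passed relative to the preparation medians. Pde1a, a phosphodiesterase activated by calmodulin, had the lowest log2 ratio of the set, -1.28 ± 0.26 (SD, n = 3, adjusted p = 0.0278). Its levels were low, at 0.945, 0.516 and 1.18 FPKM with NF serum and 0.378, 0.180 and 0.585 FPKM with DCM serum, and NF library B lay below DCM library C. The depth behind such values is unknown, and on the log2(FPKM + 1) scale, which shrinks such low values, it did not pass relative to the preparation medians (adjusted p = 0.172).

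Pde2a, whose activity on cyclic AMP is raised by cyclic GMP, was at 7.32, 10.4 and 10.4 FPKM with NF serum and at 4.26, 4.81 and 8.49 FPKM with DCM serum. The groups overlapped because DCM library C lay above NF library A. Pde4a, a phosphodiesterase specific for cyclic AMP, was likewise lowest in A with either serum, at 7.96, 17.0 and 13.5 FPKM with NF serum and 4.65, 8.09 and 10.8 FPKM with DCM serum. Their log2 ratios were -0.73 ± 0.41 and -0.72 ± 0.38 (adjusted p = 0.0417 and 0.0395), and neither passed without A (adjusted p = 0.110 and 0.104).

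Pde3a, an enzyme inhibited by cyclic GMP and the target of milrinone, was at 6.01, 3.34 and 4.36 FPKM with NF serum and at 4.50, 2.25 and 4.31 FPKM with DCM serum. Preparation C was nearly level (log2 ratio -0.02), and the mean of -0.34 ± 0.29 (SD, n = 3, adjusted p = 0.0854) did not pass without A or B (adjusted p = 0.237 and 0.241). Pde6d, which binds lipid-modified proteins rather than cutting cyclic nucleotides, did not pass (log2 ratio -0.19 ± 0.13).

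Of the adenylyl cyclases, Adcy9 fell, from 1.58, 2.97 and 2.37 FPKM to 1.16, 1.38 and 1.91 FPKM, with a log2 ratio of -0.62 ± 0.43 (SD, n = 3, adjusted p = 0.0597, and from 0.106 to 0.125 with 1 preparation left out). Adcy7 did not pass (adjusted p = 0.116) and was at 3.93 FPKM in NF library A against 0.882 and 1.39 FPKM in B and C. Their ratio did not separate the sera (exact two-sided permutation p = 0.7, n = 3 per serum, and exact p = 0.5 within pairs). Adrbk1, the older name of Grk2, encodes the kinase that switches off beta-adrenergic receptors. It had the ratio closest to 0 of the set, -0.11 ± 0.04 (adjusted p = 0.218). Genes of both synthesis (Adcy9 alone) and breakdown of cyclic AMP were thus among those that fell, as were 61.6% of all rows. Adcy9 did not pass relative to the preparation medians (adjusted p = 0.317).

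Lrrc8a is the obligatory subunit of the volume-regulated anion channel, and Lrrc8d is a partner subunit that widens what the channel lets pass. Their measured ratios had opposite signs. Lrrc8a rose from 24.1, 20.6 and 18.1 FPKM in A, B and C with NF serum to 30.0, 26.7 and 23.4 FPKM with DCM serum. Its log2 ratio of 0.35 ± 0.03 (SD, n = 3, adjusted p = 0.0348) had the smallest SD of the 34 genes, and relative to the preparation medians it was 0.56 (adjusted p = 0.000624). Because preparation A was high throughout, the sera still overlapped between NF A and DCM C.

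Lrrc8d fell from 4.66, 3.63 and 3.87 FPKM to 3.40, 2.31 and 3.71 FPKM, a log2 ratio of -0.39 ± 0.30 (SD, n = 3, adjusted p = 0.0716), and did not pass without A or B (adjusted p = 0.195 and 0.205). Within each library there was 5.17, 5.67 and 4.69 times as much Lrrc8a as Lrrc8d with NF serum, and 8.82, 11.6 and 6.29 times as much with DCM serum. These values did not overlap. Within preparations the log2 of this ratio was higher with DCM serum in 3 of 3 pairs, by 0.74 ± 0.30 (SD, n = 3). Since Lrrc8a was higher and Lrrc8d lower in each pair, this direction and the within-pair p were fixed by those signs. They are not further evidence of a change. An exact two-sided permutation test over libraries gave p = 0.1 (0.4 adjusted over the 4 ratios), and an exact sign-flip test within the 3 pairs gave p = 0.25 (0.5 adjusted). These are the smallest p that either test can give here, so neither could reach 0.05. Relative to the preparation medians Lrrc8d was at -0.072 on the log2(FPKM + 1) scale and did not pass.

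**Figure D3:**
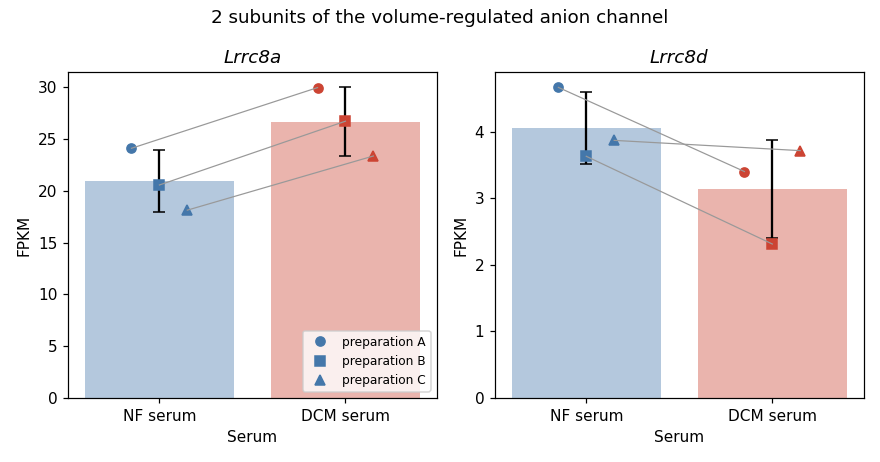
FPKM (y axis, from 0) of Lrrc8a and Lrrc8d with NF and DCM serum; bars are means with SD of 3 libraries, symbols are libraries and grey lines join those of 1 preparation. Lrrc8a goes up by a like amount in each preparation, and Lrrc8d goes down in A and B and is almost level in C.

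The promoters of this pair are shown because they are members of 1 channel family with measured ratios on either side of 0. RefSeq promoter windows of the GRCr8 assembly, which run from 250 bases before to 50 bases after a gene's start, were matched by current symbol for 23 of the 34 genes (28 windows). Below are the 150 bases just before the start, 5′ to 3′ on the gene's strand, at chr3:33908186-33908335 (plus strand) for Lrrc8a and chr14:4350237-4350386 (minus strand) for Lrrc8d. Capitals mark the cyclic AMP response element, TGACGTCA, a palindrome that reads the same on both strands.
Lrrc8a: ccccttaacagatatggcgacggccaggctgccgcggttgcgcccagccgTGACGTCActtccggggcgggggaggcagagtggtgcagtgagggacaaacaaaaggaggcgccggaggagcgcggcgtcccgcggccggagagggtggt
Lrrc8d: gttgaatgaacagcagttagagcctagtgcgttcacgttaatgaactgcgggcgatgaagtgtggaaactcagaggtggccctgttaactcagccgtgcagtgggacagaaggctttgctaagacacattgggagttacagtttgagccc

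The element begins 100 bases before the start of Lrrc8a, and Lrrc8a was the 1 gene of the 23 whose windows hold it. In all, 612 of 33469 rat promoter windows (1.83%) hold these letters. The Lrrc8a stretch has 70.0% G and C and also carries a GC box (GGGCGG on either strand), which does not overlap the element, while the Lrrc8d stretch has 50.7% G and C and neither motif. GC boxes were found in 18 of the 28 windows of the set and in 33.1% of all windows. The TATA box (TATAAA on either strand) was found in 2 of the 28 windows, those of Atp1b2 and Chrnb1, and in 14.2% of all windows. A match of letters is a description of the window and not evidence that a factor binds there.

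Of the gap junction and pannexin genes, Gja3 fell and Panx1 did not pass. Gja3 encodes connexin 46, known from lens fibers, and was at 9.29, 13.4 and 9.89 FPKM with NF serum and at 6.80, 6.79 and 7.46 FPKM with DCM serum. The groups were apart, and the DCM values lay close together (log2 ratio -0.61 ± 0.32, SD, n = 3, adjusted p = 0.0415). Panx1 encodes a large-pore channel that releases ATP (adjusted p = 0.112), while P2ry2, a receptor for extracellular ATP and UTP, fell with a log2 ratio of -0.40 ± 0.27 (adjusted p = 0.0593) but did not pass without B or C (adjusted p = 0.161 and 0.178).

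Pkd1l1, a polycystin known in mice for left-right patterning, was at 0.710, 1.84 and 1.84 FPKM with NF serum and at 0.556, 0.838 and 1.22 FPKM with DCM serum. It fell with a log2 ratio of -0.69 ± 0.40 (adjusted p = 0.0574), but did not pass without B or C (adjusted p = 0.142 and 0.153). Trpm7, a channel for magnesium and calcium joined to a kinase, fell by a smaller amount (-0.26 ± 0.18) from 10.2, 11.0 and 12.4 FPKM to 9.36, 9.57 and 8.95 FPKM, and was 1 of the 6 genes whose groups did not overlap. Tmc7, of the transmembrane channel-like family, had -0.35 ± 0.20, and Ano8, of the anoctamin family, had -0.50 ± 0.41, both passing. Trpm7 and Tmc7 did not pass when any 1 preparation was left out (adjusted p from 0.104 to 0.323), nor Ano8 without A or B (adjusted p = 0.185 and 0.189). Chrnb1, the beta subunit of the muscle acetylcholine receptor, did not pass (adjusted p = 0.101).

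Differences between preparations were as large as those between sera for many of these genes. The spread of the 3 NF libraries was wider than the mean serum change for 24 of the 34 genes (70.6%, against 66.0% of all rows). In 11 of the 34 genes (32.4%) the highest NF library was more than 2-fold above the lowest, as in 12.9% of all rows. Of these 11, the NF library of preparation A was lowest for 7 (Atp1b2, Pde4a, Pkd1l1, Trdn, Cacna1g, Kcnh2 and Sln) and highest for Kcnn4 and Adcy7. The largest such folds were 5.48 for Atp1b2, 5.31 for Scn3b, 4.45 for Adcy7 and 3.80 for Cacna1g. In each of the 11 the preparation that was lowest with NF serum was also lowest with DCM serum, which held for 28 of all 34 genes (82.4%) and 65.4% of all rows.

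**Figure D4:**
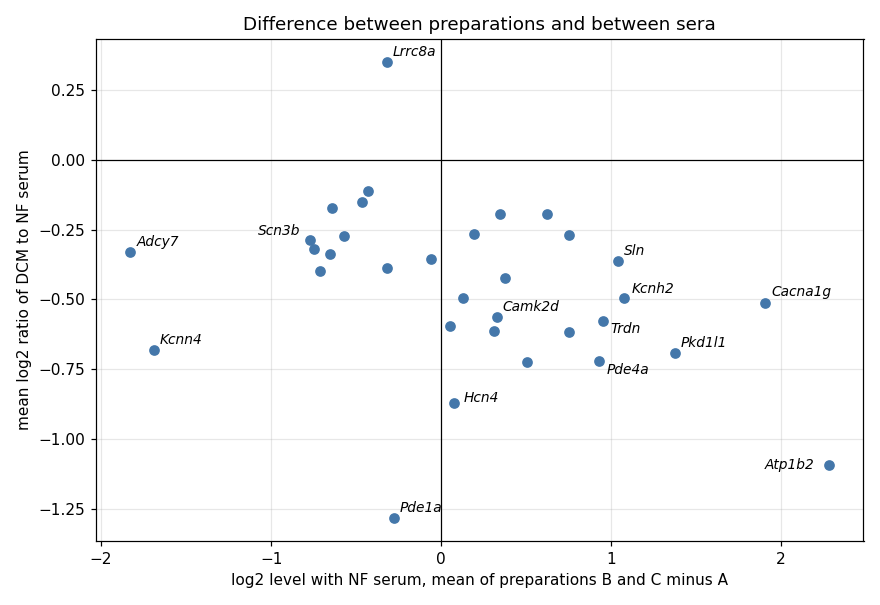
For 33 of the 34 genes (points), the difference in log2 level with NF serum between preparations B and C and preparation A (x axis) and the log2 ratio of DCM to NF serum as a mean of 3 preparations (y axis). Atp1b2 and Cacna1g lie far to the right and Adcy7 and Kcnn4 far to the left, while Hcn4 lies near 0 on the x axis; other named points differed over 2-fold between NF libraries, apart from Lrrc8a and Camk2d.

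The size of the serum change also differed between preparations, which differ in DCM donors as well as in cells. The largest change was in B for 26 of the 34 genes (76.5%, against 58.8% of all rows), and the smallest was in C for 19 (34.2% of all rows) and in A for 12 (52.2% of all rows). Over the set the median log2 ratio was -0.40 in A, -0.68 in B and -0.30 in C. In B this compares with -0.40 for the table and in C with -0.25, so that the set was nearest to the table in preparation C.

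Of 62 genes on a list of core excitation and contraction genes, 11 were in the table, all of them among the 34 genes already counted. Of these 11, 10 (90.9%) fell, where 61.6% of all rows did. Relative to the preparation medians 4 were lower (10.7% of all rows were) and 0 were higher (7.82% of all rows were). Among the 10 that fell were Atp2b4, Cacna1g, Cacnb2, Camk2d, Hcn4, Kcnh2, Pde3a, Sln and Trdn, and Kcnj3 was the gene that did not pass. The 51 others, among them the ryanodine receptor Ryr2, the calcium pump Atp2a2 and phospholamban (Pln), were not analysed here. The list's median log2 ratio was -0.51, beside -0.29 for the table.

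Partner genes of these channels outside the symbol rule were listed separately. Of 108 listed, 30 were in the table, and 23 (76.7%, against 61.6% of all rows) fell, 1 rose and 6 did not pass, with a median log2 ratio of -0.37. Relative to the preparation medians 1 was lower (10.7% of all rows were) and 2 were higher (7.82% of all rows were). Ank2, the adaptor that holds ion transporters at the membrane, had the lowest ratio of -0.87 ± 0.49 (SD, n = 3, adjusted p = 0.0405), and its DCM libraries all lay below its NF libraries. The kinase Grk5, which acts on adrenergic receptors, had -0.57 ± 0.42. The cyclic AMP sensor Rapgef3 had -0.54 ± 0.29, and Rcan2, an inhibitor of calcineurin, had -0.52 ± 0.48. Grk5, Rapgef3 and Rcan2 did not pass relative to the preparation medians (adjusted p = 0.110, 0.480 and 0.255). The gene that rose was Ank3, a related adaptor, at 0.23 ± 0.06 (adjusted p = 0.0622).

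Markers of the labelled cell type and of others were read from the same table. Of 22 cardiomyocyte markers, Myl2 and Mybpc3 were in it, with summed levels of 9603 to 11698 FPKM with NF serum and 6847 to 11588 FPKM with DCM serum, the lowest in DCM library A. Mybpc3 fell (log2 ratio -0.22 ± 0.18, adjusted p = 0.0949) and Myl2 did not pass (-0.24 ± 0.34, adjusted p = 0.165). Of 16 fibroblast markers, 4 were present, summing to 224 to 302 FPKM with NF serum and 154 to 281 FPKM with DCM serum, and 3 fell. Over all rows, 61.6% fell and 6.24% rose. Most of that sum was Vim (240, 186 and 220 FPKM with NF serum in A, B and C), which did not pass. Relative to the preparation medians, 1 fibroblast marker, Fbln2, was lower. Of 11 smooth muscle markers, 3 were present (120.4 to 154 and 77.3 to 127 FPKM), of which 2 fell and Lmod1 rose. Of 12 endothelial markers, Pecam1 was present and rose (1.51 to 2.19 and 2.34 to 3.22 FPKM). Of 11 Schwann cell and neuron markers, Tubb3 was present and fell. It was at 8.73 FPKM in NF library A against 2.34 and 2.95 FPKM in B and C, the direction of Adcy7 and Kcnn4. Over all rows, 34.8% had their highest NF level in A. None of 11 macrophage markers was in the table. No listed marker in the table was at 0, and the part of these cell types in the channel results was not tested. In bulk RNA, fewer cells of a type and less RNA per cell cannot be told apart.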

How the data were processed

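The authors used GSNAP to align single-end directional reads of NRVM RNA to Rnor_5.0, computed FPKM with Cufflinks, removed genes of low variance and deposited 1 table of rows past a q threshold of 0.10. The study's text counts such genes, and their directions, otherwise than the table does, so shares of lower and higher rows describe the rows of this table alone. Tool versions are not given in the sources used here. Per the file headers, further columns hold the authors' own fold changes, p-values and q-values, which were not used. The table gives no read counts, so the depth behind a value is unknown. Adrbk1 is the 1 member symbol of 34 that is not current in RefSeq (GRCr8).

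Libraries were compared with limma 3.58.1 in R 4.3.3 on log2(FPKM + 1), with NRVM preparation as a block and a Benjamini-Hochberg adjusted p under 0.10 over 3221 rows (2 residual degrees of freedom). The methods normalize within preparations, and the headers pair the libraries. The libraries of a pair deviated together from the means of their groups, with correlations of 0.873, 0.743 and 0.741 (other pairs -0.706 to 0.235). The pseudocount of 1 understates changes of low genes. Ratios printed as mean ± SD use log2 FPKM without it. Serum donors are shared by some libraries, so p-values measure the spread between these libraries. Full values were given for members on the core list, the 8 with the largest change in each direction among those that passed and the 4 with the highest level. Others were described by role, and values by library for Adcy7, Adcy9, Camk2g, Gja3, Lrrc8d, Scn3b and Trpm7 were added after they had been seen. The fit was tested on simulated data. Members and gene lists were chosen with earlier results of these data known. Exact tests used scipy 1.17.1 under Python 3.11. Values of 1 member are not reported here, although counts over the 34 genes include it.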

Additional observations from a re-analysis of the deposited data

How the results depend on the processing

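Counts of called genes depended on the block, the centring and the threshold. Over all 3221 rows, 2185 were called with the preparation as a block, 4 with no replicate block (533 at an unadjusted p under 0.05), 596 relative to the preparation medians and 864 at an adjusted p under 0.05. Among the 34 channel and calcium genes the counts were 26, 0 (6 at an unadjusted p under 0.05), 9 and 10 in the same order, and among the partner genes 24, 0 (5 at an unadjusted p under 0.05), 3 and 8. With 1 preparation left out, 592 to 1304 rows, 8 to 14 channel genes and 6 to 11 partner genes were called. The share of lower genes among all called rows was 90.8%, and 57.7% relative to the medians. The cause of these differences was not tested. Other pseudocounts, the FPKM filter and current symbols kept each count within 1.5 times.

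Centring on the preparation medians adds 0.226 to the fitted value of each gene on the log2(FPKM + 1) scale, so genes with a smaller fitted decrease change sign by construction. This was so for 10 of the 34 genes, none of them past the threshold. The sign of low genes on that scale says little, since Kcnn4 had a mean log2 ratio of -0.68 in FPKM, below the -0.29 of all rows. The values were 0.050 for Kcnn4, 0.062 for Adcy7, 0.051 for Chrnb1, 0.069 for Panx1, 0.049 for Kcnj3, 0.045 for Pde6d, 0.041 for Cacnb2, 0.056 for Calm2, 0.11 for Stim2 and 0.13 for Adrbk1. Of these, Kcnn4, Cacnb2 and Calm2 had been called lower. With no pseudocount or a pseudocount of 0.1, 3 genes lost a call (Camk2g, Cacnb2 and Calm2) and 3 gained one (Adcy7, Chrnb1 and Panx1). The table's selection by the same contrast, the 3 libraries per serum and the unknown depth limit what these calls show.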
